A study of Mus musculus with 8 samples.

Results

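The heat shock protein and chaperone genes described here are 9 named genes, chosen by symbol: the regulator Hsf1, the HSP70 genes Hspa1a, Hspa1b and Hspa8, their partners Hsph1 and Dnajb1, the HSP90 gene Hsp90aa1, and the mitochondrial chaperonin genes Hspd1 and Hspe1. They are 9 of the 15377 genes listed in at least one of the deposited tables, and all 9 had enough reads to be tested in every comparison. Bone marrow from C57BL/6 mice was grown to day 7 in M-CSF (10 ng/mL), giving bone marrow-derived macrophages (BMDM), or in GM-CSF (20 ng/mL), giving bone marrow-derived dendritic cells (BMDC). The donors had loxP-flanked alleles of Trpv2, which encodes a calcium-permeable cation channel, and either carried Lyz2-Cre (Lyz2-Cre;Trpv2fl/fl, called knockout) or did not (Trpv2fl/fl, called control). The groups are knockout BMDM, control BMDM, knockout BMDC and control BMDC, with 2 RNA-seq libraries each, and the series counts 2 mice of a genotype for each cell type. The cultures were not heated or otherwise treated as far as the labels say, the labels give neither age nor sex of the mice, nor is it known whether a mouse gave both cell types.

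Chaperones of the HSP70 and HSP90 families bind unfolded or metastable proteins and release them through cycles of ATP hydrolysis. HSP40 proteins such as Dnajb1 deliver substrates to HSP70 and start its ATP hydrolysis, and HSP110 proteins such as Hsph1 exchange its nucleotide. The transcription factor HSF1 is held inactive by chaperones in unstressed cells, and when unfolded protein draws the chaperones away it binds heat shock elements, repeats of GAA and its complement TTC in alternating orientation, and induces their genes. In macrophages and dendritic cells these chaperones also take part in the handling of antigens and in the folding of signalling kinases.

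The 8 libraries held 15790185 to 19463457 counts, so that 3 counts, the limit that a count of 0 allows, came to 0.154 to 0.190 CPM, that is, counts scaled to a common library total. These limits cover counting error only. Trpv2 was at 26.4 and 29.2 CPM in knockout BMDM, against 273 and 277 CPM in control BMDM, and at 35.5 and 56.3 CPM in knockout BMDC, against 181 and 240 CPM in control BMDC. Lyz2, the locus that carries Cre, was at 242 and 274 CPM in knockout BMDM, against 63602.6 and 54968 CPM in control BMDM, and at 103 and 202 CPM in knockout BMDC, against 17453 and 19759 CPM in control BMDC, so the knockout libraries differ from the controls in Lyz2 as well as in Trpv2. Cre from this locus acts in myeloid cells and in part of the dendritic cells, so cells that did not recombine may remain in a culture. BMDC knockout 2 stood apart from its table: its counts correlated with the other 3 BMDC libraries at a Spearman coefficient of 0.94 to 0.945 over genes, where those 3 reached 0.98 to 0.984 among themselves and the BMDM libraries 0.986 to 0.99. The summed level of the 13 granulocyte markers was 141 and 160 CPM in knockout BMDM and 162 and 142 CPM in control BMDM, against 2376 and 2107 CPM in knockout BMDC and 1670 and 2482 CPM in control BMDC. Mmp8 alone made up most of the BMDC sums, at 2177 and 1726 CPM in knockout BMDC and 1468 and 2165.6 CPM in control BMDC, while the granule gene Elane was at 0.151 and 5.02 CPM in knockout BMDC and 0 and 1.95 CPM in control BMDC. In the BMDM table Elane, Ltf and S100a9 were at 0 in both controls, and Mpo, Prtn3, Ly6g and Retnlg were not listed. Among 12 macrophage markers, 5 of 12 passed the test as higher in control BMDM than in control BMDC, and among 13 tested dendritic cell markers, 3 of 13 passed as lower, where 4.67% of all 11671 genes tested passed as higher and 5.08% as lower. The part of this makeup in the members' values was not tested. In such bulk cultures, fewer cells of a type and less RNA per cell cannot be told apart.

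Levels of different genes are compared as deposited FPKM, which are per length, and levels of a gene between libraries as CPM scaled by TMM over all 8 libraries. By median FPKM over the 8 libraries, Hspa8 stood highest at 471 FPKM, followed by Hsp90aa1 at 77.9 FPKM, Hspd1 at 69.4 FPKM and Hspe1 at 62.8 FPKM. Dnajb1 was at 15.8 FPKM, Hsph1 at 6.82 FPKM and Hsf1 at 5.49 FPKM. The stress-inducible HSP70 genes were lowest, Hspa1b at 1.37 FPKM and Hspa1a at 0.564 FPKM, the range of libraries of a group not overlapping between Hspa1b and its neighbours in any of the 4 groups. In knockout BMDC the order of Hspe1, Hsp90aa1 and Hspd1 was not separable, nor that of Hsf1 and Hsph1, and in control BMDM the neighbours Hspd1 and Hspe1 overlapped, as did Hsph1 and Hsf1. The 9 genes took 0.322% to 0.357% of all counts in the BMDM libraries and 0.173% to 0.216% in the BMDC libraries, and Hspa8 alone made up 66.0% to 80.5% of the members' counts.

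**Figure D1:**
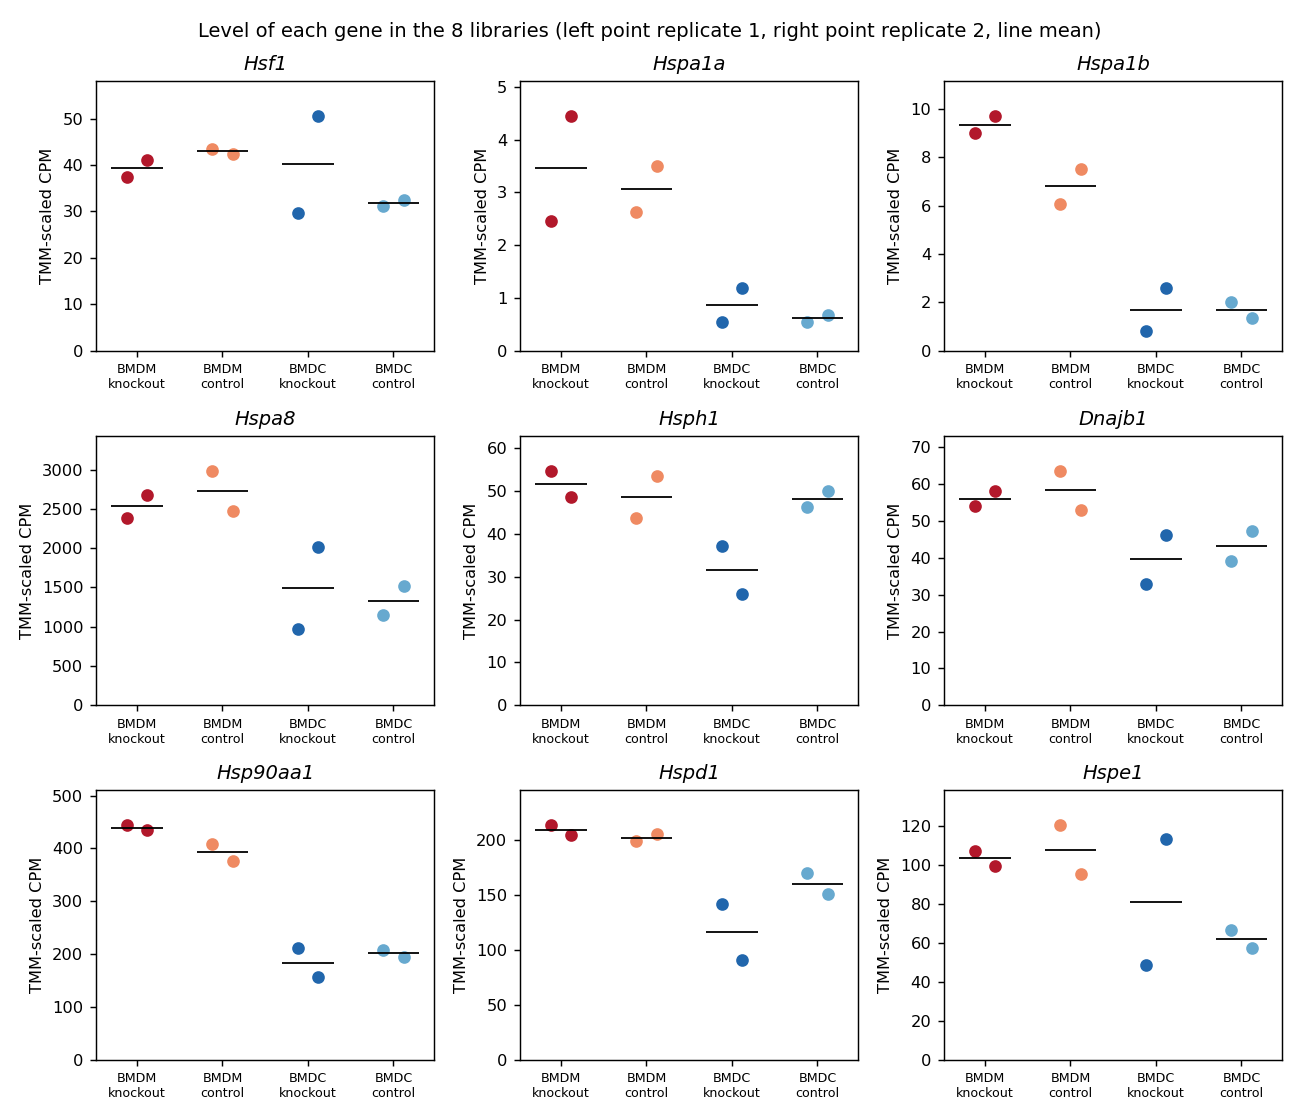
Level of each of the 9 genes in each library, as TMM-scaled CPM on a linear axis from 0, with 2 points per group (replicate 1 left, replicate 2 right) and a line at the group mean. Hspa1a, Hspa1b, Hspa8, Hsp90aa1, Dnajb1 and Hspd1 sit higher in all 4 BMDM libraries than in all 4 BMDC libraries. The share of all genes separated in this way was not counted. The 2 libraries of knockout BMDC lie apart for Hspa8, at 974 and 2009 CPM, and for Hspe1, at 48.8 and 113 CPM.

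Hspa1a and Hspa1b encode the stress-inducible cytosolic HSP70 and are near-identical copies, so reads that fit both could be split or discarded by the counting, and the values of each are uncertain. In the files they lie on chromosome 17 on the minus strand, at positions 35188166 to 35191132 (Hspa1a, ENSMUSG00000091971) and 35175412 to 35178214 (Hspa1b, ENSMUSG00000090877). Deposited positions are given as the files hold them. The protocol names GRCm38 and the processing notes list GRCm39 as well, and the positions were not joined to the promoter sequences below. The 250 bases before each start, from RefSeq on GRCm38.p6, are shown because both copies differed between the cell types. Capitals mark each match of an 8-base heat shock element, GAANNTTC or TTCNNGAA, both of which read the same on either strand. The windows are chr17:34972157-34972406 for Hspa1a and chr17:34959239-34959488 for Hspa1b, both on the minus strand and printed 5′ to 3′ towards the start.
Hspa1a: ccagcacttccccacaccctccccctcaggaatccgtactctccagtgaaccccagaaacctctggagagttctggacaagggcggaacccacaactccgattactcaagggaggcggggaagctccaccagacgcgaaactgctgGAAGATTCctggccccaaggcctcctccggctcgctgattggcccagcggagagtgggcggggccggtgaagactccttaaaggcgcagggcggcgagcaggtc
Hspa1b: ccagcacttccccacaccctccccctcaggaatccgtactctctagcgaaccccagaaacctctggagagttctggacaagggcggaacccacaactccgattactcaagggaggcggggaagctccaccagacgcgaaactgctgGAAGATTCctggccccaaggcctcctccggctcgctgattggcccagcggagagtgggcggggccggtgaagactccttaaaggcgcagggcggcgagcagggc

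Both windows hold the element GAAGATTC from 104 to 97 bases before the start, and a CCAAT box, the letters CCAAT on either strand, read as attgg here, from 67 to 63 bases before it. The windows were identical at 247 of 250 bases, with the substitutions C44T, T47C and T249G from Hspa1a to Hspa1b, counted from 1 at the 5′ end of the window. Among 32851 promoter windows of 250 bases (27025 genes), 6.69% hold GAANNTTC, 7.17% hold TTCNNGAA and 33.8% hold CCAAT on either strand. These matches describe letters and show no binding.

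The copies were both higher in BMDM than in BMDC. Hspa1a was at 2.46 and 4.44 CPM in knockout BMDM and 2.62 and 3.50 CPM in control BMDM, against 0.552 and 1.18 CPM in knockout BMDC and 0.541 and 0.682 CPM in control BMDC. Hspa1b was at 8.99 and 9.70 CPM in knockout BMDM and 6.07 and 7.52 CPM in control BMDM, against 0.803 and 2.58 CPM in knockout BMDC and 2.00 and 1.36 CPM in control BMDC. For both copies every BMDM library was above every BMDC library. The share of all genes separated in this way over the 8 libraries was not counted, here or for the genes below. Hspa1b held 59.3% to 78.7% of the pair's counts over the 8 libraries, with 95% Wilson intervals from 40.7% to 75.5% in BMDC knockout 1, where the pair had 27 counts, to 72.1% to 83.8% in BMDM knockout 1, where it had 186. The share therefore carried wide counting error in the BMDC, and all 8 intervals included 72.1% to 74.1%. Over the 8 libraries the copies' log2 levels correlated at a Pearson r of 0.95, a description that shares the cell type contrast and any reads assigned to either copy.

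The first comparison asks how the control cell types differ. Between control BMDM and control BMDC, 2 of the 9 genes passed the threshold of 0.05 on the adjusted p, Hspa1a and Hsp90aa1, both higher in BMDM. Of the 11671 genes tested, 9.75% passed it in either direction, 4.67% as higher and 5.08% as lower, and 28.7% had an unadjusted p under 0.05. All 9 genes had a log2 fold change above 0, with a median of 0.80, against −0.02 over all genes tested, and with library totals in place of TMM scaling 8 of the 9 did, with a median of 0.60 against −0.21 over all genes. In 8 of 9, all but Hsph1, both BMDM libraries were above both BMDC libraries, where 74% of all genes tested did not overlap between these groups, 36.3% with BMDM higher and 37.7% with BMDM lower. Hspa1a averaged 3.06 ± 0.622 CPM in control BMDM and 0.612 ± 0.0992 CPM in control BMDC (SD, n = 2 each), a 4.95-fold difference (log2 2.31, SE 0.57, adjusted p = 0.047 by edgeR). Hspa1b averaged 6.79 ± 1.02 CPM in control BMDM and 1.68 ± 0.453 CPM in control BMDC (SD, n = 2 each), 4.03-fold, and missed the threshold (log2 2.01, SE 0.54, adjusted p = 0.056 by edgeR). With the counts of the copies summed, the pair passed (log2 2.10, SE 0.48, adjusted p = 0.037 by edgeR).

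Hsp90aa1 encodes the inducible cytosolic HSP90, which holds kinases and steroid receptors in an activatable state (chromosome 12, minus strand, 110657039 to 110669162, ENSMUSG00000021270). It was at 444 and 435 CPM in knockout BMDM and 408 and 377 CPM in control BMDM, against 211 and 157 CPM in knockout BMDC and 208 and 194 CPM in control BMDC. All BMDM libraries were above all BMDC libraries. The control groups averaged 393 ± 22.6 CPM in BMDM and 201 ± 10.0 CPM in BMDC (SD, n = 2 each), a 1.95-fold difference (log2 0.96, SE 0.23, adjusted p = 0.044 by edgeR). Hspa8, the constitutive cytosolic HSP70 that also uncoats clathrin vesicles (chromosome 9, plus strand, 40712280 to 40721383, ENSMUSG00000015656), was at 2380.3 and 2683 CPM in knockout BMDM and 2987 and 2476 CPM in control BMDM, against 974 and 2009 CPM in knockout BMDC and 1154 and 1513 CPM in control BMDC. Its BMDM and BMDC libraries did not overlap in either genotype. In controls the difference was 2.05-fold and did not pass (log2 1.03, SE 0.38, adjusted p = 0.12 by edgeR). The remaining log2 differences between the control cell types were 0.80 for Hspe1, 0.43 for Dnajb1, 0.43 for Hsf1, 0.34 for Hspd1 and 0.02 for Hsph1, with adjusted p from 0.21 to 0.97.

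The calls of this comparison were near the threshold. Over fits that each left out 1 library, the log2 fold change ran from 2.09 to 2.50 for Hspa1a and from 0.91 to 1.03 for Hsp90aa1. Both genes missed the threshold in most of these fits. The knockout libraries, though not compared here, enter the shared estimate of the spread. A fit of the 4 control libraries alone, added after the data were seen, passed 5 of 9, namely Hspa1a, Hspa1b, Hspa8, Hsp90aa1 and Hspe1, with 4311 genes in all.

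**Figure D2:**
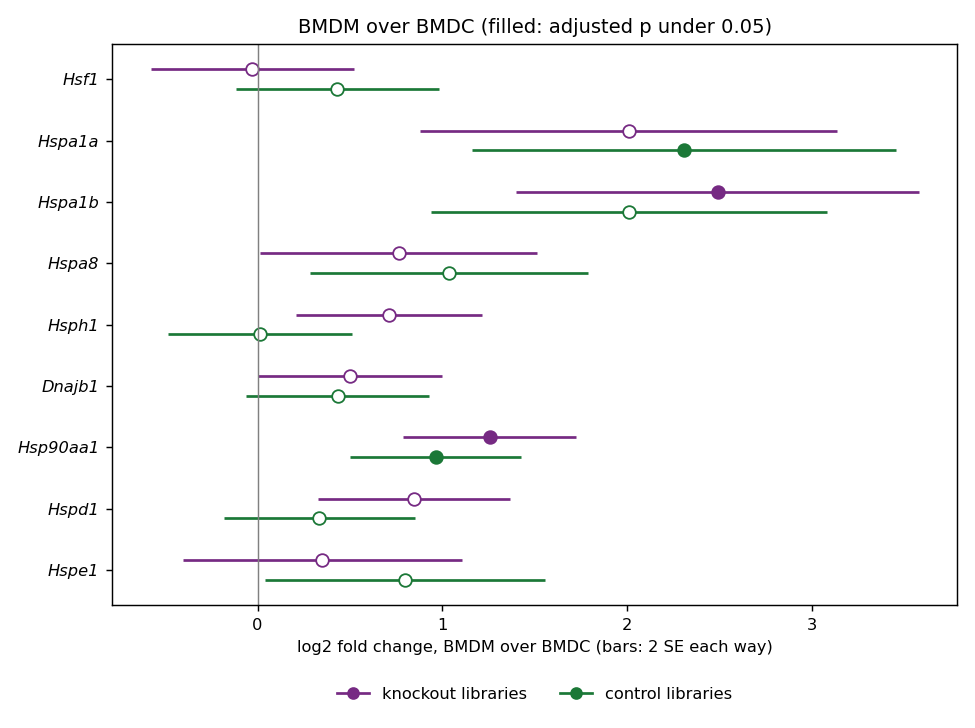
Log2 fold change of BMDM over BMDC for each gene in the knockout libraries (upper point of each row) and the control libraries (lower point), with bars of 2 standard errors each way and filled points at an adjusted p under 0.05. Hsp90aa1 is filled in both genotypes, Hspa1b in the knockout and Hspa1a in the control libraries.

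In the knockout libraries, 2 of the 9 genes passed as higher in BMDM than in BMDC, Hspa1b and Hsp90aa1, where 8.02% of 11671 genes passed in either direction, 3.38% as higher and 4.64% as lower, and 22.6% had an unadjusted p under 0.05. Hspa1b averaged 9.34 ± 0.505 CPM in knockout BMDM and 1.69 ± 1.25 CPM in knockout BMDC (SD, n = 2 each), a 5.62-fold difference (log2 2.49, SE 0.55, adjusted p = 0.033 by edgeR), and the log2 value was 1.88 without BMDC knockout 1 and 3.53 without BMDC knockout 2. Hsp90aa1 averaged 439 ± 6.69 CPM in knockout BMDM and 184 ± 38.1 CPM in knockout BMDC (SD, n = 2 each), a 2.39-fold difference (log2 1.26, SE 0.23, adjusted p = 0.018 by edgeR). Hspa1a differed 4.02-fold (adjusted p = 0.076 by edgeR), Hspd1 1.80-fold (adjusted p = 0.098), and the summed pair passed (log2 2.34, adjusted p = 0.028). The log2 differences were 0.76 for Hspa8, 0.71 for Hsph1, 0.50 for Dnajb1, 0.35 for Hspe1 and −0.03 for Hsf1, with adjusted p from 0.14 to 0.97. The members' median was 0.76, against −0.09 over all genes tested. In 7 of 9, all but Hspe1 and Hsf1, the groups did not overlap and BMDM was higher, where 44.8% of all genes did not overlap, 22.1% with BMDM higher and 22.7% with BMDM lower. Over fits that each left out 1 library, the log2 fold change of Hsp90aa1 ran from 1.06 to 1.51. Hspa1b missed the threshold in most of these fits, and Hsp90aa1 missed it in several. A fit of the 4 knockout libraries alone, added after the data were seen, passed none of the 9 and 281 genes in all.

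The second question is whether loss of Trpv2 changed these genes. In BMDM, none of the 9 passed the threshold between knockout and control by edgeR, and none had an unadjusted p under 0.05. Among the 11024 genes of that test 0.109% did pass, 0.0454% as higher and 0.0635% as lower in knockout, while an unadjusted p under 0.05 was reached by 2.82%. None of the 9 passed by DESeq2, limma-voom or limma on FPKM. The members' log2 fold changes had a median of 0.05, with 5 above 0 and 4 below, against −0.01 over all genes tested, and with library totals in place of TMM scaling 8 were above 0, with a median of 0.15 against 0.10 over all genes. On the scale of the BMDM table the groups did not overlap for Hspa1b, Hsp90aa1 and Hspd1, with knockout higher, and for Hsf1, with knockout lower. These are 4 of 9, where 26.7% of all genes did not overlap, 13.1% with knockout higher and 13.6% with knockout lower. By deposited FPKM Hspa1b, Hsp90aa1 and Hspd1 again did not overlap, and Hsf1 did. The share of all genes without overlap was not counted on the FPKM scale.

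Among the 9, Hspa1b had the smallest p in BMDM. It averaged 9.34 ± 0.505 CPM in knockout and 6.79 ± 1.02 CPM in control libraries (SD, n = 2 each), 1.37-fold (log2 0.46, SE 0.25, adjusted p = 1.00 by edgeR), and both knockout libraries were above both controls. An interval of 2 SE each way ran from −0.05 to 0.97 on the log2 scale. Its copy Hspa1a had overlapping groups and a log2 fold change of 0.18 (SE 0.37). For the other 7 genes the log2 fold changes in BMDM lay between −0.13 (Hsf1, SE 0.17) and 0.16 (Hsp90aa1, SE 0.16), and the intervals of 2 SE each way of these 7 stayed between −0.48 and 0.48. In the authors' deposited table the log2 fold change of Hspa1b in BMDM was 0.46, with an adjusted p of 1, and all 9 genes had an adjusted p of 1 in both cell types.

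**Figure D3:**
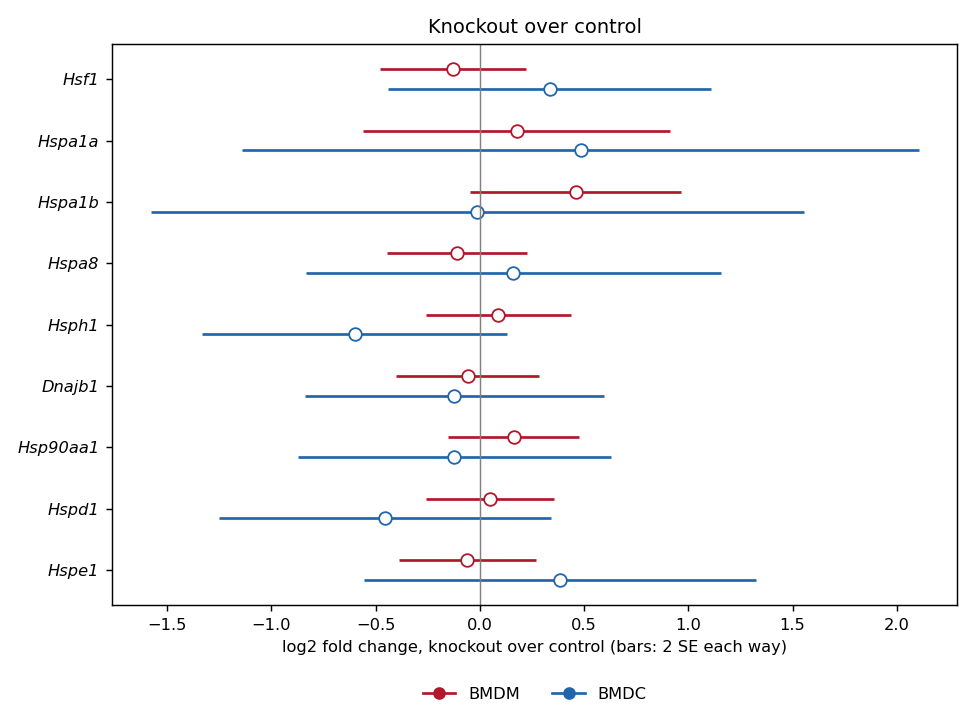
Log2 fold change of knockout over control for each gene in BMDM (upper point of each row) and BMDC (lower point), with bars of 2 standard errors each way. No point is filled, since none of the 9 genes passed an adjusted p of 0.05 in either cell type, and the BMDC bars are wider than the BMDM bars for every gene.

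In BMDC, none of the 9 passed between knockout and control by edgeR, as no gene did (0% of 11357, with 1.13% at an unadjusted p under 0.05, none of them a member), while DESeq2 passed 6 genes, none of them a member. The spread was larger than in BMDM: the square root of edgeR's common dispersion was 0.406 in BMDC and 0.134 in BMDM. The members' median log2 fold change was −0.01, with 4 above 0 and 5 below, against 0.02 over all genes. With library totals in place of TMM scaling 3 were above 0, and the median was −0.21 against −0.10 over all genes. Hsph1 and Hspd1 had both knockout libraries below both controls, 2 of 9, where 25.2% of all genes did not overlap and 12.6% did so with knockout lower. By deposited FPKM the groups did not overlap for Hsph1 and Dnajb1, with knockout lower, and for Hsf1, with knockout higher. Here too the share of all genes was not counted on that scale. Hspd1 overlapped by FPKM, at 62.5 and 28.0 FPKM in knockout and 70.4 and 60.1 FPKM in control libraries.

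Hsph1 encodes the HSP110 nucleotide exchange factor of HSP70 (chromosome 5, minus strand, 149537752 to 149559841, ENSMUSG00000029657). It was at 54.7 and 48.7 CPM in knockout BMDM and 43.7 and 53.5 CPM in control BMDM, against 37.2 and 25.8 CPM in knockout BMDC and 46.2 and 50.1 CPM in control BMDC. The knockout BMDC libraries were the lowest of the 8. Knockout over control came to −0.60 on the log2 scale in BMDC (SE 0.37), which did not pass (edgeR, adjusted p = 0.97), and to 0.09 in BMDM (SE 0.17). The difference between these effects, BMDM minus BMDC, was 0.70 (SE 0.35, adjusted p = 0.84 by edgeR). Its promoter window before the more upstream of 2 RefSeq starts, chr5:149636337-149636586 on the minus strand of GRCm38.p6, holds 1 heat shock element, in capitals, from 33 to 26 bases before that start. It is shown for comparison with the HSP70 copies.
Hsph1: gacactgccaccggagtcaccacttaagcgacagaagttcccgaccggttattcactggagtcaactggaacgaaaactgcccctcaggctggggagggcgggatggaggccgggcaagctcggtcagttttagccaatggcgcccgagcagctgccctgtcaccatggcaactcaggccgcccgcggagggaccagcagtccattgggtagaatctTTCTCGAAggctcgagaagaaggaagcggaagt

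Hspd1 and Hspe1 encode the chaperonin HSP60 and its lid HSP10, which together fold proteins of the mitochondrial matrix. They lie head to head on chromosome 1, Hspd1 on the minus strand at 55116994 to 55127402 (ENSMUSG00000025980) and Hspe1 on the plus strand at 55127291 to 55130466 (ENSMUSG00000073676) in the files, where their gene models share 112 bases. The library kit keeps strand, but no source used here gives the strand setting of the counting, so reads in the shared stretch could be assigned to either gene. On GRCm38.p6 the Hspe1 start is 216 bases from the farther of 2 listed Hspd1 starts, the one at 55087932. An 18-base run of 4 alternating heat shock units lies between that start and the Hspe1 start. The window chr1:55088053-55088082 is shown on both strands because it is the same element read towards either gene. Capitals mark the run.
Hspe1 strand: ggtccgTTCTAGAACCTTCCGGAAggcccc
Hspd1 strand: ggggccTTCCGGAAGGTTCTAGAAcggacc

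The run ends 72 bases before the Hspe1 start. On the Hspd1 strand it lies from 144 to 127 bases before the start at 55087932. A match of 3 units, TTC, GAA and TTC with 2 bases between neighbours, on either strand, is held by 0.466% of the 32851 windows. The Dnajb1 windows (chromosome 8) hold no 8-base element in their 250 bases, which says only that these letters are not there, and the window of its more upstream start has a CCAAT box from 151 to 147 bases before it.

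Leaving BMDC knockout 2 aside, Hspd1 and Hspe1 were both higher in every BMDM library than in every BMDC library. Within the BMDM libraries they did not follow each other, as BMDM control 1 was the lowest for Hspd1 and the highest for Hspe1. Hspd1 was at 214 and 204 CPM in knockout BMDM and 199 and 205 CPM in control BMDM, against 141 and 90.8 CPM in knockout BMDC and 169.9 and 151 CPM in control BMDC. Hspe1 was at 107 and 99.6 CPM in knockout BMDM and 120.4 and 95.2 CPM in control BMDM, against 48.8 and 113 CPM in knockout BMDC and 66.8 and 57.2 CPM in control BMDC. BMDC knockout 2 was the lowest of the 8 libraries for Hspd1 and the second highest for Hspe1. The ratio of Hspd1 to Hspe1, taken from FPKM, was 1.11 and 1.14 in knockout BMDM and 0.921 and 1.20 in control BMDM, against 1.62 and 0.446 in knockout BMDC and 1.42 and 1.47 in control BMDC. Over the 8 libraries the log2 levels of Hspd1 correlated with those of Hsph1 at r = 0.91 and with those of Hspe1 at r = 0.18. Without BMDC knockout 2, a choice made after the data were seen, r was 0.65 with Hsph1 and 0.96 with Hspe1 over 7 libraries, and both are descriptions over libraries that share the cell type contrast. Knockout over control in BMDC, on the log2 scale, was −0.46 for Hspd1 (SE 0.40, adjusted p = 0.97 by edgeR) and 0.38 for Hspe1 (SE 0.47, adjusted p = 0.97 by edgeR).

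**Figure D4:**
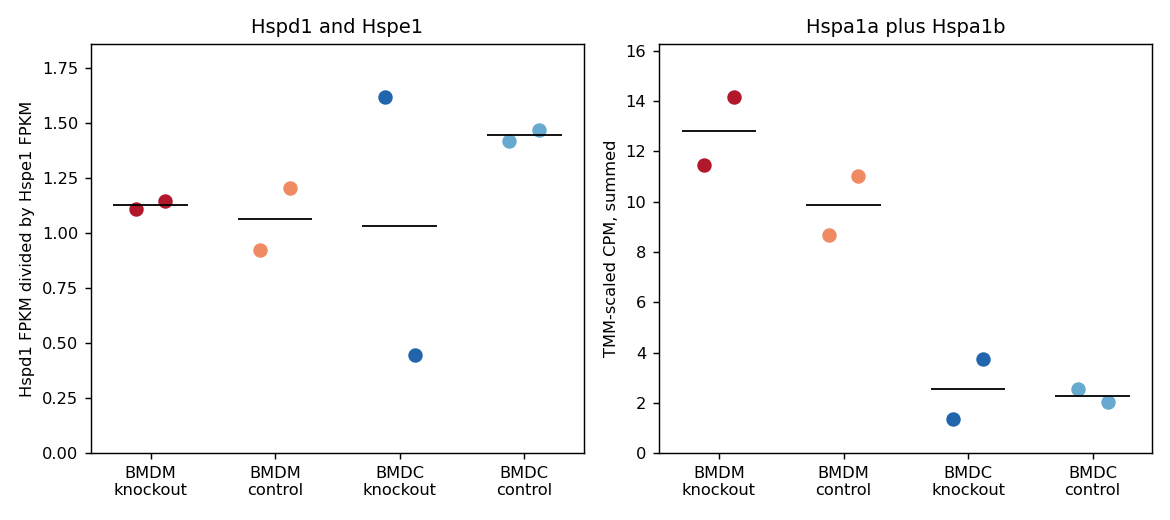
Left, Hspd1 FPKM divided by Hspe1 FPKM, and right, the summed TMM-scaled CPM of Hspa1a and Hspa1b, for each library (replicate 1 left, replicate 2 right) with a line at the group mean. The ratio of BMDC knockout 2, 0.446, lies below the other 7, which run from 0.921 to 1.62, and the summed HSP70 pair is at 8.69 to 14.1 CPM in BMDM and 1.35 to 3.76 CPM in BMDC.

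For the other members knockout and control overlapped in BMDC on the CPM scale. Dnajb1, the HSP40 partner that is induced with HSP70 (chromosome 8, plus strand, 84334822 to 84339282, ENSMUSG00000005483), was at 54.0 and 58.1 CPM in knockout BMDM and 63.7 and 53.0 CPM in control BMDM, against 32.9 and 46.3 CPM in knockout BMDC and 39.1 and 47.3 CPM in control BMDC. Every BMDM library was above every BMDC library, and the knockout groups overlapped the controls in both cell types on this scale, though not by FPKM in BMDC, with means of 11.9 ± 0.141 FPKM in knockout and 14.5 ± 1.56 FPKM in control libraries (SD, n = 2 each). Hsf1, the regulator itself (chromosome 15, plus strand, 76361622 to 76386113, ENSMUSG00000022556), was at 37.4 and 41.1 CPM in knockout BMDM and 43.5 and 42.4 CPM in control BMDM, against 29.8 and 50.5 CPM in knockout BMDC and 31.2 and 32.4 CPM in control BMDC. Its lowest and highest libraries of all 8 were the replicates of knockout BMDC, a span of 1.70-fold, the narrowest of the 9 genes, where Hspa1b spanned 12.1-fold. Its mRNA level does not report the activity of the protein, which is set after translation. The BMDC log2 fold changes were 0.48 for Hspa1a (SE 0.81), 0.33 for Hsf1 (SE 0.39), 0.16 for Hspa8 (SE 0.50), −0.01 for Hspa1b (SE 0.78), −0.12 for Dnajb1 (SE 0.36) and −0.12 for Hsp90aa1 (SE 0.38), with adjusted p of 0.97 to 1.00 by edgeR.

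The knockout BMDC libraries differed from each other. Relative to the mean of the BMDC controls, the log2 deviation was 0.62 in BMDC knockout 2 and −0.99 in BMDC knockout 1 for Hspa1b, the widest gap of the 9, on 37 and 16 counts. It was −0.91 in BMDC knockout 2 and −0.34 in BMDC knockout 1 for Hsph1, −0.83 and −0.15 for Hspd1, 0.86 and −0.32 for Hspe1, 0.59 and −0.42 for Hspa8 and 0.65 and −0.07 for Hsf1, in the same order. On this CPM scale Hsph1 and Hspd1 were below the controls in both libraries without overlap. The level in BMDC knockout 2 also followed gene length over all tested genes: at the listed length of Hspe1, 1474 bases, the trend was at 0.80, and at that of Hsph1, 7266 bases, at −0.42. With that trend subtracted, the deviation of BMDC knockout 2 was 0.06 for Hspe1, −0.49 for Hsph1, −1.20 for Hspd1, 0.58 for Hspa8 and 1.05 for Hsf1. The same library had a summed level of 20 interferon-stimulated genes (18 of them listed) of 13858 CPM, against 594 CPM in BMDC knockout 1 and 1610 and 1053 CPM in the BMDC controls. The part of gene length or of these other changes in the members' values was not tested. Without BMDC knockout 1 the log2 fold changes of knockout over control were −0.92 for Hsph1, −0.85 for Hspd1 and 0.85 for Hspe1. Without BMDC knockout 2 Hspe1 was at −0.33. In those fits the lone knockout library was assumed to vary like the controls.

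**Figure D5:**
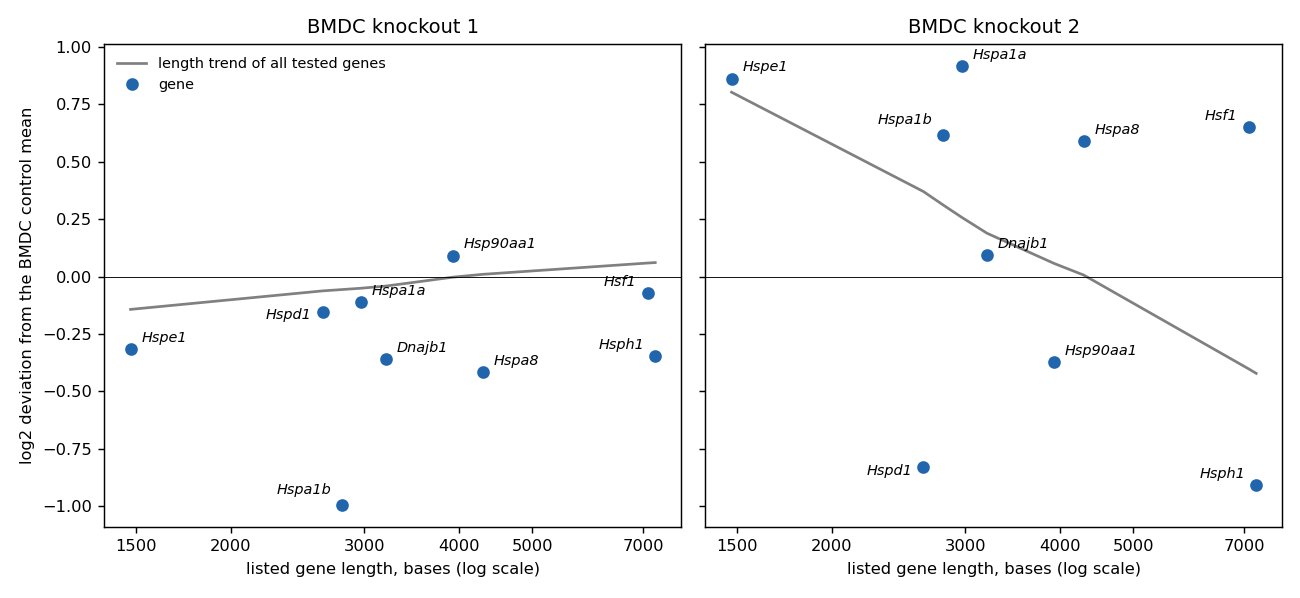
Log2 deviation of each gene from the BMDC control mean in BMDC knockout 1 (left) and BMDC knockout 2 (right) against its listed length in bases on a log axis, with the trend of all tested genes with length as a line. In BMDC knockout 2 the trend runs from 0.80 at the length of Hspe1 to −0.42 at that of Hsph1, and Hspd1 lies 1.20 below it.

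The difference between the knockout effects in the 2 cell types did not pass for any of the 9 by edgeR, nor for any of the 11671 genes tested (0%), with 1.93% at an unadjusted p under 0.05, none of them a member. The size was 0.51 for Hspd1 (SE 0.36, adjusted p = 0.84 by edgeR), −0.46 for Hsf1 (SE 0.39), −0.45 for Hspe1 (SE 0.53) and 0.48 for Hspa1b (SE 0.74). Without BMDC knockout 1, which leaves BMDC knockout 2 as the only knockout BMDC library, the values were 0.99 for Hsph1, 0.88 for Hspd1, −0.92 for Hspe1 and −0.78 for Hsf1.

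The other chaperone genes were described in 10 lists of heat shock factors, HSF1 targets, HSP70, HSP40, nucleotide exchange, HSP90, small heat shock, mitochondrial, chaperonin and endoplasmic reticulum genes. Between knockout and control, and for the difference between the knockout effects, no gene of these lists passed the threshold by edgeR in either cell type. Of the 16 tested HSF1 targets beyond the members the median log2 fold change was −0.01 in BMDM, with 8 above 0, and of 17 it was −0.08 in BMDC, with 8 above 0.

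Between the control cell types, 2 of the 18 tested HSF1 targets passed, both higher in BMDM, and none passed as lower, a share near the 9.75% of all genes that passed. Bag3, an HSP70 co-chaperone of selective autophagy, was at 57.0 and 56.2 CPM in control BMDM, against 30.4 and 28.5 CPM in control BMDC (log2 0.94, SE 0.21, adjusted p = 0.033 by edgeR). Ahsa1, which speeds the ATP hydrolysis of HSP90, was at 255 and 206 CPM in control BMDM, against 80.9 and 84.2 CPM in control BMDC (log2 1.48, SE 0.35, adjusted p = 0.041 by edgeR). For both genes all BMDM libraries were above all BMDC libraries. Hsf4, a relative of Hsf1, passed at a low level, 3.38 and 4.86 CPM in control BMDM, against 0.108 and 0.682 CPM in control BMDC (log2 3.34, SE 0.84, adjusted p = 0.048 by edgeR), and in the first of those BMDC libraries its level was below the limit that 3 counts give. The log2 value of Hsf4 was 2.60 without BMDC control 1 and 5.17 without BMDC control 2, so its size was set by single libraries. In the HSP90 list of 18 genes 1 was higher, Ahsa1, and 1 was lower, Fkbp5, a co-chaperone of steroid receptors that glucocorticoids induce, at 6.48 and 7.71 CPM in control BMDM, against 21.6 and 27.7 CPM in control BMDC (log2 −1.80, SE 0.25, adjusted p = 0.0059 by edgeR). The constitutive HSP90 gene Hsp90ab1 was at 1544 and 1432 CPM in control BMDM, against 990.0 and 1001 CPM in control BMDC, and missed the threshold (adjusted p = 0.15 by edgeR).

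No gene of the chaperonin and prefoldin list passed between the control cell types, though 12 of 14 had a log2 fold change above 0, with a median of 0.37, against −0.02 over all genes. The smallest p in it was for Tcp1, at 188 and 179 CPM in control BMDM, against 123 and 119 CPM in control BMDC (log2 0.60, SE 0.19, adjusted p = 0.093 by edgeR). Of the 27 genes of endoplasmic reticulum folding, 2 passed, both lower in BMDM, where 5.08% of all genes passed as lower, and 11 were above 0. Trib3, a target of the integrated stress response, was at 3.45 and 1.69 CPM in control BMDM, against 31.8 and 81.7 CPM in control BMDC (log2 −4.47, SE 0.60, adjusted p = 0.0053 by edgeR). Pdia4, a disulfide isomerase, was at 47.9 and 44.7 CPM in control BMDM, against 97.0 and 185 CPM in control BMDC (log2 −1.60, SE 0.32, adjusted p = 0.023 by edgeR). Over 19 alternatives, the difference between control cell types passed in 10 for Bag3, 12 for Ahsa1, 13 for Hsf4, 17 for Fkbp5, 18 for Trib3 and 14 for Pdia4, and none changed sign. In the knockout libraries, Fkbp5 (log2 −2.28), Trib3 (−4.41) and Pdia4 (−1.48) again passed as lower in BMDM, where 4.64% of all genes did. No gene of the 10 lists passed as higher there, where 3.38% of all genes did. The HSP40 list (16 tested), the cytosolic HSP70 list beyond the members (5), the small heat shock list (3) and the mitochondrial list (15) held no gene past the threshold in either genotype. Among 16 tested immediate early genes, which respond to handling of cells as well as to signals, Ier3, Egr2 and Klf4 passed as lower in control BMDM than in control BMDC, where 5.08% of all genes did. In the knockout libraries Ier3 and Egr2 passed as lower and Btg2 as higher in BMDM (log2 1.17, adjusted p = 0.021 by edgeR). The summed level of the 17 was 1191 and 1026 CPM in control BMDM, against 1157 and 1606 CPM in control BMDC, and their part in the members' values was not tested.

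By pattern over the 8 libraries, the genes most like Hsp90aa1 among 11671 were Nyap1 (Pearson r = 0.998 of log2(CPM + 1)), Fnbp1l and Prkcb, and those most like Hspa8 were Atp5b (r = 0.997), Gfer and Eef1g. Dbi (r = 0.995), Chchd6 and Mdh2 were most like Hspe1, and Rnf145 (r = 0.992), Gemin6 and Ubxn4 most like Hspd1. For Hspa1a they were Car11 (r = 0.992), Cacna1a and Acss1, and the nearest to Hspa1b was Ube2cbp (r = 0.990). Hsph1 was nearest to Zfp260 (r = 0.990), Rad23b and Cipc, Dnajb1 to Gtpbp3 (r = 0.992), Zfand3 and Sdhc, and Hsf1 to Usf1 (r = 0.992), Mib2 and Mrpl22. These are descriptions over libraries that share the cell type contrast and the departure of BMDC knockout 2. Among the members themselves, Hspa8 and Dnajb1 were nearest (r = 0.97), followed by Hspa1a with Hspa1b (0.95), while Hsph1 and Hspe1 were at r = −0.06. Without BMDC knockout 2 these values were 0.976, 0.949 and 0.52 over 7 libraries. The order then changed, with Hspa1b and Hspd1 nearest, at r = 0.982.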

How the data were processed

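RNA from 8 cultures was made into stranded mRNA libraries, and reads were trimmed with cutadapt, aligned to GRCm38 and counted per gene with HTSeq, per the labels' protocols. The submitters' processing notes name no versions and list GRCm39 beside GRCm38; no source used here gives the aligner or the strand setting. Raw counts per gene were deposited in a table of 4 libraries for each cell type (14755 genes for BMDC, 14311 for BMDM, 13689 in both). FPKM values, per listed gene length and table total, come from the authors. Beside them the authors deposited a mean signal of scaled counts, a log2 fold change of knockout over control, a p-value and an adjusted p-value, made with a tool that is not stated.

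Counts were tested with edgeR 4.0.16 in R 4.3.3 by the quasi-likelihood test after TMM scaling. Genes were kept by filterByExpr (minimum count 10), p-values were adjusted by Benjamini-Hochberg over all genes tested, and the threshold was 0.05. Knockout was compared with control within each table. BMDM was compared with BMDC, and the knockout effects with each other, in a joint fit of the 8 libraries over genes in both tables. A standard error (SE) is the log2 fold change divided by the square root of F. The series counts mice, so replicates were taken as separate mice; with 2 per group the p-values rest on a spread shared across genes. The named genes are the members, Trpv2 and Lyz2, for each chaperone list the genes past the threshold or else the 2 with the smallest p, and the 3 genes most correlated with each member; not all are reported here. Members, the 21 other lists and alternatives were chosen with earlier results of these data known. Alternatives were DESeq2 1.42.0, limma 3.58.1 (voom, log2(FPKM + 1) and log2(FPKM + 0.1)), other scalings and filters, removal of a trend with gene length, a replicate block and leaving out each library. Fits of a genotype alone, the summed HSP70 copies, a crossed block, FPKM overlaps and correlations without BMDC knockout 2 were added after the data were seen. The tests were tried on simulated data. RefSeq promoters (GRCm38.p6) matched 6 of the 9 members; Hspa8, Hsp90aa1 and Hsf1 had no entry.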

Additional observations from a re-analysis of the deposited data

Results flagged for a closer look

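For Hspd1, both knockout libraries were above both controls in BMDM on the scale of the BMDM table, by a narrow margin. BMDM knockout 2 lay 0.025 and BMDM control 2 lay 0.015 log2 above the control mean. On the scale of all 8 libraries these groups overlapped, at 214 and 204 CPM in knockout and 199 and 205 CPM in control. In BMDC both knockout libraries were below both controls (141 and 90.8 CPM in knockout, 169.9 and 151 CPM in control). Hspd1 is listed here for these opposite orders. By deposited FPKM the BMDC groups overlapped, at 62.5 and 28.0 FPKM in knockout and 70.4 and 60.1 FPKM in control libraries. The difference between the effects, BMDM minus BMDC, was 0.51 on the log2 scale and did not pass the threshold (SE 0.36, adjusted p = 0.84 by edgeR). Its BMDM effect was 0.05 on the log2 scale.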

How the results depend on the processing

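Knockout calls among the 9 genes stayed at 0 under every alternative run except leaving out BMDC knockout 1, while the calls between cell types depended on single libraries and on the tool. Counts below are genes past the threshold. For knockout in BMDC (0 genes), DESeq2 gave 6, no filter 1, the replicate block 2 and the joint fit 1. For knockout in BMDM (12 genes), library totals gave 5, the joint fit 2 and the crossed block 29. For control BMDM over control BMDC (1138 genes, 2 members), DESeq2 gave 2212 genes and 4 members, limma on FPKM 1 member at either pseudocount, and the controls alone 4311 genes and 5 members. For knockout BMDM over knockout BMDC (936 genes, 2 members), DESeq2 gave 1691 genes and 4 members, the length trend removed 4 members, limma on FPKM 3 members at either pseudocount, and the knockouts alone 281 genes and 0 members. The differences between replicates 1 and 2 of knockout and of control correlated over genes at −0.00157 in BMDC and −0.244 in BMDM. With 1 difference per group, these values cannot show whether replicate numbers pair the samples. With the replicate block the genes numbered 11 for knockout in BMDM, 824 (1 member, Hspa1a) between control cell types, 733 (2 members) between knockout cell types and 0 for the difference between the knockout effects.

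Leaving out each library in turn gave 0 to 3215 genes and 0 to 3 members for knockout in BMDC, 11 to 34 genes and 0 members in BMDM, 0 to 3733 genes and 0 to 4 members for the difference between the effects, 218 to 4877 genes and 0 to 6 members between control cell types, and 130 to 3866 genes and 0 to 7 members between knockout cell types. Signs turned in these fits only where no call was made. For knockout in BMDC the log2 fold change ran from −0.13 to 0.92 for Hspa1a, −1.04 to 0.59 for Hspa1b, −0.37 to 0.075 for Dnajb1, −0.43 to 0.57 for Hspa8, −0.39 to 0.086 for Hsp90aa1, −0.33 to 0.85 for Hspe1 and −0.077 to 0.64 for Hsf1. In BMDM it ran from −0.32 to 0.54 for Hspa1a, −0.034 to 0.25 for Hsph1, −0.18 to 0.10 for Dnajb1, −0.23 to 0.049 for Hspa8 and −0.21 to 0.14 for Hspe1. The difference between the effects ran from −0.79 to 0.33 for Hspa1a, −0.15 to 1.52 for Hspa1b, −0.15 to 0.34 for Dnajb1, −0.69 to 0.34 for Hspa8 and −0.92 to 0.29 for Hspe1. Between cell types it ran from −0.14 to 0.16 for Hsph1 in controls, and from −0.11 to 1.09 for Hspe1 and −0.34 to 0.40 for Hsf1 in knockouts.

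Among the other alternatives, signs turned only for values that did not pass. For knockout in BMDC, Hspa1b was 0.0020 by DESeq2 and 0.14 with the copies summed, Hspa8 −0.042 with library totals and −0.056 on FPKM at either pseudocount, and Hspe1 −0.056 with the length trend removed. In BMDM, Dnajb1 was 0.053, Hspa8 0.00067 and Hspe1 0.054 with library totals, the same genes 0.052, 0.0018 and 0.056 on FPKM at a pseudocount of 1 and 0.055, 0.0018 and 0.057 at 0.1, and Hspe1 0.0088 with the length trend removed. The difference between the effects was 0.070 and 0.018 for Hspa1a and 0.058 and 0.058 for Hspa8 on FPKM at pseudocounts of 1 and 0.1, and 0.063 for Hspe1 with the length trend removed. Hsph1 between control cell types was −0.16 and −0.18 on FPKM at those pseudocounts. Hsf1 between knockout cell types was 0.030 by voom, and 0.058 and 0.068 on FPKM. The cause of these changes was not tested. Depth limits Hspa1a and Hspa1b most, whose summed counts were 27 to 54 in the BMDC libraries.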
